A study of Mus musculus with 34 samples.

Results

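On day 3 after a moderate contusion, the wild-type mouse spinal cord was compared with control cord labelled sham across 11998 expressed genes. Injured cord was represented by 4 arrays and control cord by 4, 8 of the 34 arrays in the study. Membership followed the array titles (wild type at day 3, wild type sham). A gene counted as expressed when a probe set naming it alone had a log2 value of at least 4 on at least 4 of the 34 arrays. All 8 arrays held thoracic cord of C57BL/6J mice backcrossed for more than 20 generations and 8 to 12 weeks old. Both groups had the genotype label trkB.T1 WT, so neither carried the deletion of the truncated BDNF receptor trkB.T1 that defines the knockout arrays of the study. Sham is the label's word: the description codes of those arrays begin with "Nav", and no source used here says if those animals were operated on. Also not stated are the sex, the distance of the tissue from the impact site, or whether 1 array is 1 animal. The titles call the arrays biological replicates. The p-values rest on a spread between arrays that was pooled over all 34 arrays of the study, not over these 8 alone. Further comparisons used 5 wild-type arrays at day 1, 4 at day 7, 4 sham knockout arrays and 5 knockout arrays at day 3, all of the same strain, age and tissue.

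A contusion kills cells and tears vessels at the impact, and blood, plasma and debris enter the tissue. Resident microglia and incoming monocytes then become phagocytes, astrocytes around the lesion become reactive, fibroblasts and vascular cells lay down matrix, and many of these cells divide. Neurons and oligodendrocytes are lost or change state, and spared axons try to regrow. In whole tissue, fewer cells of a type and less RNA per cell cannot be told apart, which holds for every decrease below, and the same is true of more cells and more RNA per cell for the increases.

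The arrays carried the markers of spinal cord. In sham cord the neuronal genes Snap25, Rbfox3, Slc17a6 and Slc6a5, the myelin gene Mbp and the astrocyte genes Gfap and Aqp4 had group means between 11.15 ± 0.11 and 15.77 ± 0.03 (log2, SD, n = 4), far above the log2 value of 4. Replicates correlated at 0.9581 or more within day 3 and 0.9869 or more within sham, and no day 3 array correlated above 0.9367 with a sham array. The first principal component of the 8 arrays held 75.54% of the variance and separated the groups. The 3′ to 5′ difference of the Actb control probe sets, a measure of RNA integrity and labelling, was 1.39 to 1.54 at day 3 and 1.805 to 2.051 in sham. That of Gapdh went the other way, at 0.166 to 0.228 and 0.031 to 0.096, so both moved with the groups, in opposite directions. Of 12 tested caudal Hox genes, which mark the level of the cord along the body, 3 were higher and 6 lower at day 3, where 29% of all genes were higher and 37% lower. Hoxa10, expressed at lumbar levels, rose from 6.10 ± 1.02 to 7.78 ± 0.62, while Hoxb6 fell from 8.87 ± 0.06 to 7.36 ± 0.48. Skeletal muscle genes were erratic in the controls: Acta1, the muscle actin, read 4.08, 10.76, 4.08 and 10.36 on the 4 sham arrays and 10.22, 8.35, 9.17 and 11.36 at day 3. Over the 13 muscle genes the array mean ran from 3.74 to 9.06 in sham and from 6.5 to 9.18 at day 3, and 1 of the 13, Pvalb, which interneurons also express, was called. The part of integrity, cord level and muscle in the results was not tested.

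Day 3 replicate 2 stood apart from the other 3 day 3 arrays. For 771 genes (6.426%) it lay more than 1 log2 unit outside the range of the other 3, against 7 to 66 genes for each other day 3 array and 20 to 121 for each sham array. On it 544 of those genes were low and 227 high. Il6, the inflammatory cytokine, read 2.20, 6.28, 2.58 and 2.20 on the 4 day 3 arrays, and the oligodendrocyte precursor receptor Gpr17 read 9.21, 2.58, 8.65 and 9.04. Leaving it out changed the count of higher or lower genes in day 3 against sham by at most 3 in any of the gene lists below. Calls of single genes that ended or began without it are given with those genes.

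**Figure D1:**
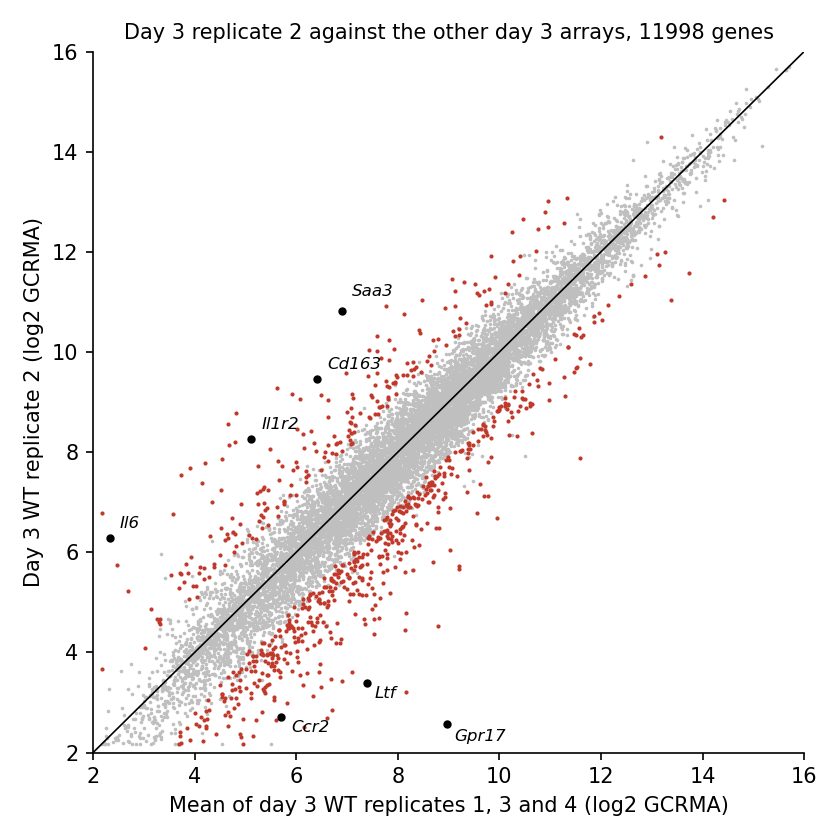
Each point is 1 of 11998 genes, with the mean log2 value of day 3 replicates 1, 3 and 4 on the x axis and the log2 value of day 3 replicate 2 on the y axis. Red points are the 771 genes more than 1 log2 unit outside the other 3 arrays, and Il6 at 6.28 and Gpr17 at 2.58 are among the labelled genes.

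The response at day 3 was wide, and it was lopsided at its large end. Of the 11998 genes, 7924 (66%) passed an adjusted p of 0.05 (limma, Benjamini-Hochberg over all tested probe sets): 3482 (29%) were higher at day 3 and 4442 (37%) lower. In 6896 genes (57.5%) the 4 day 3 arrays did not overlap the 4 sham arrays. Decreases were many and small, with a median of −0.6 on the log2 scale among called genes, while the median of called increases was 0.793. At 2-fold or more there were 1421 increases and 917 decreases. At 4-fold or more there were 633 increases (5.28%) and 28 decreases (0.233%), and at 8-fold or more 295 and 1. Without day 3 replicate 2, the counts at 4-fold were 641 and 17. The size of a change was limited by the scale: GCRMA, the method that made the values, leaves dim probe sets near a floor of 2.17. Of the increases, 490 started from a sham mean under 4, and 167 of the decreases ended at a day 3 mean under 4. A gene under 4 in 1 group entered the test mainly through arrays where it was higher. Its direction was therefore set in part by the filter, and list counts with many such genes are to be read with that limit. Where a list below is given with no count of such genes, it held at most 6 of them. A difference from or to a group mean under 4 is a lower bound, written as a value "or more" below, and the order of lower bounds is that of fitted values only. Errors after ± are SDs over the arrays of the group for group levels. These are 5 arrays for wild type at day 1 and knockout at day 3, and 4 for the other groups. For differences they are limma standard errors, from a spread pooled over all 34 arrays. The median difference over all genes was −0.06, which is the value to set beside the medians of gene groups. Likewise, the shares of 29% higher and 37% lower are those to set beside the list counts of day 3 against sham.

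**Figure D2:**
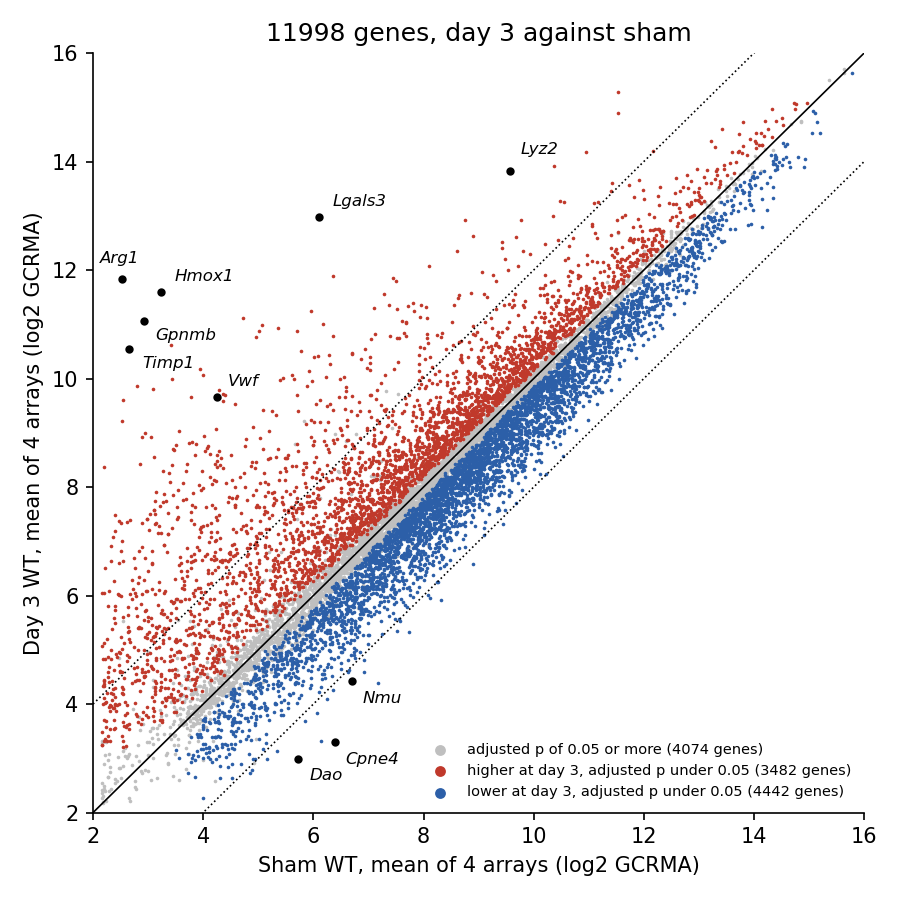
Mean log2 value in sham (x axis) and at day 3 (y axis) for 11998 genes, 4 arrays each. Red marks the 3482 genes called higher, blue the 4442 called lower, grey the 4074 not called, and the dotted lines lie 4-fold above and below equality. Arg1, Hmox1 and Gpnmb rise highest above the diagonal, and Cpne4 and Dao lie below the lower line.

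Arg1, the arginase of alternatively activated macrophages, had the largest increase. Its 4 sham arrays read 3.01, 2.38, 2.38 and 2.36, all near the floor, and its day 3 arrays 11.43, 12.76, 12.12 and 11.04. The difference was +9.30 ± 0.44 on the log2 scale, a lower bound, with an adjusted p of 2.24e-16. Hmox1, which breaks down heme, read 2.88, 3.29, 3.12 and 3.62 in sham and 11.50, 12.57, 11.40 and 10.90 at day 3, a difference of +8.37 ± 0.34 (adjusted p 1.51e-17, a lower bound). Gpnmb, a lysosomal glycoprotein of phagocytes, followed at +8.14 ± 0.50 or more. In all 3 the lowest day 3 array was at least 6 log2 units above the highest sham array.

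The other 12 of the 15 largest increases came from several cell types. Macrophage genes among them were Ms4a6d at +7.20 ± 0.27 or more, the scavenger receptor Msr1 at +7.07 ± 0.29 or more, the galectin Lgals3 at +6.88 ± 0.31, the C-type lectin Clec4d at +6.56 ± 0.35 or more and the complement C3a receptor C3ar1 at +6.71 ± 0.25 or more. Ch25h, which makes 25-hydroxycholesterol, rose by 7.07 ± 0.23 or more. Timp1, an inhibitor of matrix metalloproteinases, read 2.28 to 3.61 in sham and 10.19 to 11.18 at day 3. Sprr1a, a gene of regenerating axons, read 2.25 to 2.66 in sham and 8.98 to 9.73 at day 3. Tagln, the smooth muscle protein transgelin, rose by 6.38 ± 0.38, and the tubulin Tubb6 by 6.07 ± 0.31. Ctla2b, a protease inhibitor-like gene, and Crym, which binds thyroid hormone, completed the 15 at +6.23 ± 0.27 or more and +6.16 ± 0.30 or more. In each of the 15 the 2 groups of arrays were apart, as they were in 57.5% of all genes. The 15 were picked for the size of their difference, which favours such a separation. Without day 3 replicate 2 the smallest of the 15 differences was +5.77, that of Crym.

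The 15 largest decreases were smaller and were led by neuronal genes. Cpne4, a calcium-dependent membrane-binding protein, read 6.18, 6.22, 6.45 and 6.70 in sham and 3.20, 2.82, 3.37 and 3.83 at day 3, a difference of −3.08 ± 0.33 that is a lower bound (adjusted p 1e-08). The neurexin ligand Nxph2 fell by 2.82 ± 0.43 or more and Sptssb, a subunit of the sphingolipid-making enzyme, fell by 2.79 ± 0.44. Dao, the D-amino acid oxidase of astrocytes, read 5.81, 5.65, 5.32 and 6.12 in sham and 2.87, 2.67, 3.56 and 2.87 at day 3. Gjd2, the connexin of electrical synapses between neurons, went from 7.74 ± 0.11 to 5.32 ± 0.48, and the synaptic scaffold gene Lin7b from 8.32 ± 0.06 to 5.91 ± 0.68. The neuropeptide genes Nmu and Npb fell, with differences of −2.28 ± 0.34 and −2.18 ± 0.27. Hapln1, the link protein of perineuronal nets, fell by 2.17 ± 0.26. Hes5, a Notch target gene of glia and progenitors, fell by 2.17 ± 0.20 or more and Hoxd1 fell by 2.19 ± 0.17 or more. Gpr101, Kctd4, Vwc2l and Trmt9b made up the rest, between −2.33 and −2.17. All 15 pairs of groups were apart, in genes picked for the size of their difference, where 57.5% of all genes were apart.

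**Figure D3:**
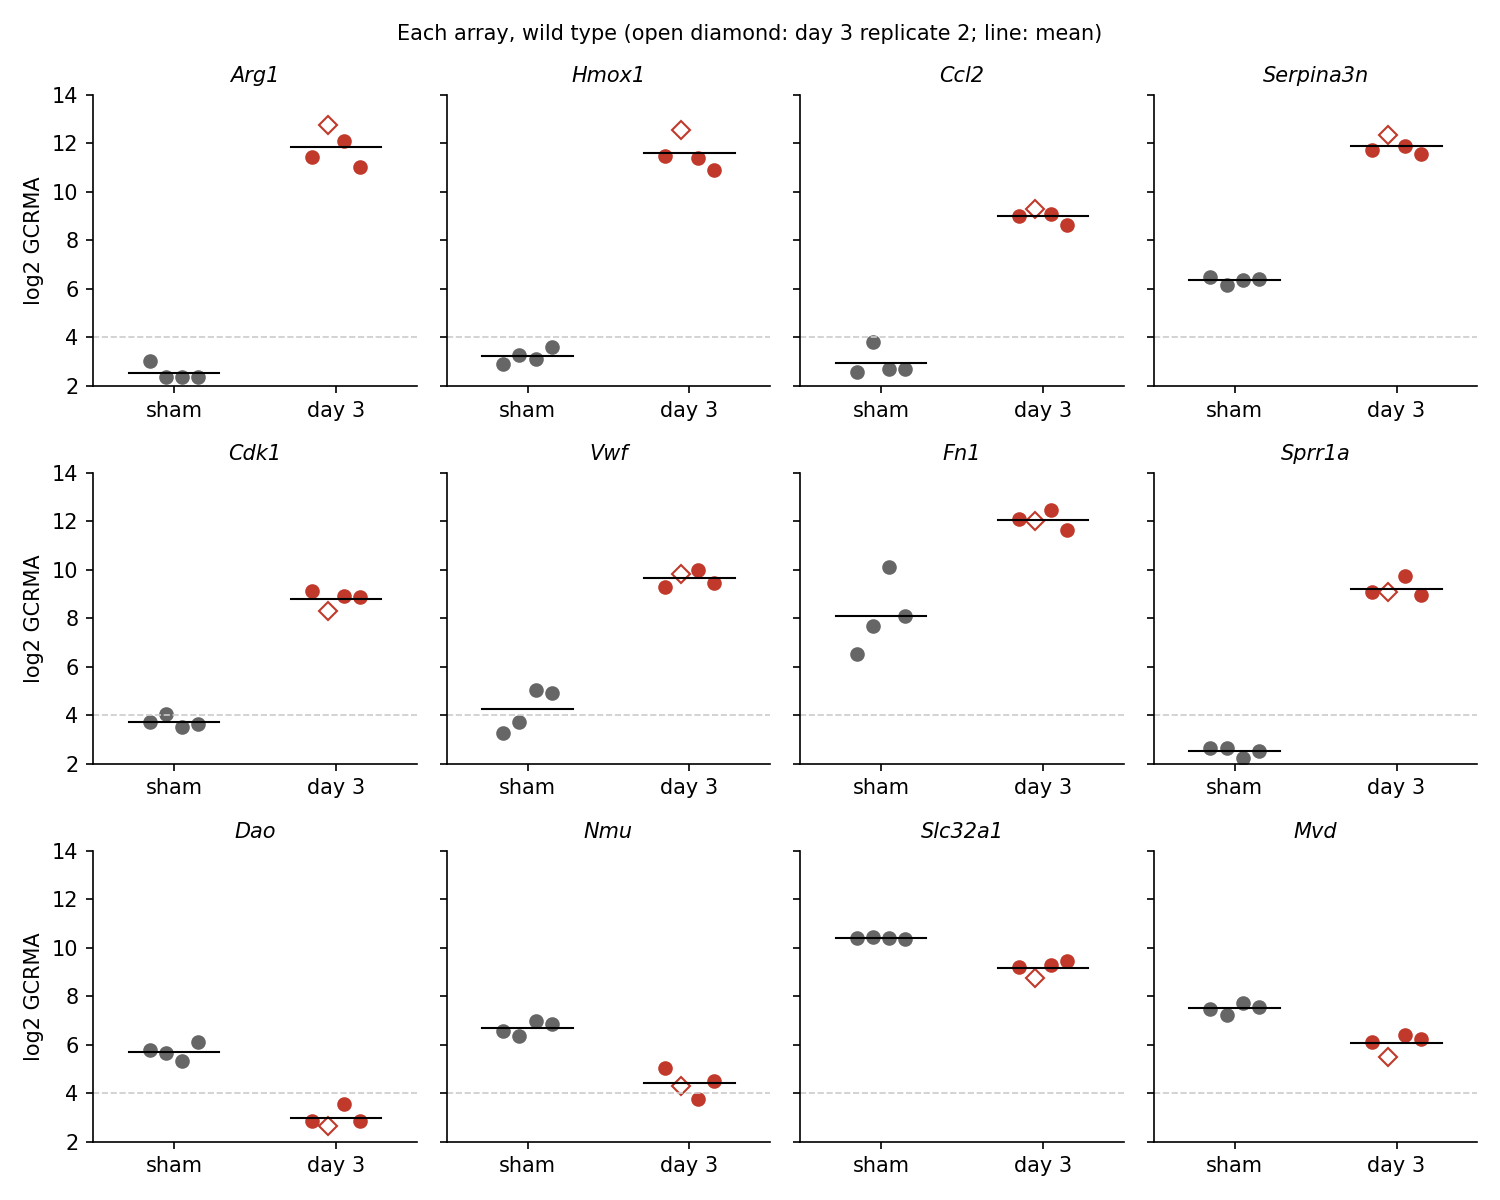
Log2 values of 12 genes on each of the 4 sham and 4 day 3 arrays. Each symbol is 1 array, the open diamond is day 3 replicate 2, horizontal lines are group means, and the dashed line is the log2 value of 4. In all 12 genes the groups are apart, as in 57.5% of all genes, with the widest gap in Arg1 and the narrowest ones in Slc32a1 and Mvd.

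Genes of phagocytes rose together. Of 24 tested genes of wound and lipid-laden macrophages, 22 were higher and none lower, with a median difference of 3.76, where 29% of all genes were higher. Without day 3 replicate 2 the count was 23. In 11 of the 24, 1 group mean was under log2 4, so the filter favoured an increase. Cd68, the lysosomal marker of phagocytes, read 5.14, 4.80, 5.55 and 4.34 in sham and 11.10, 10.08, 10.99 and 10.92 at day 3, a difference of +5.82 ± 0.29 (adjusted p 6.4e-16). Genes for complement, Fc receptors and their signalling partners were higher in 15 of 17, with a median of 3.37. Of the 17, 5 had 1 group mean under log2 4, where the filter favoured an increase. The Fc receptor gene Fcgr2b rose from 5.01 ± 0.35 to 10.88 ± 0.16, and the integrin Itgb2 from 5.61 ± 0.29 to 10.07 ± 0.23. C1qa, a subunit of the first complement component, was already well expressed in sham and rose by 2.94 ± 0.12. Tyrobp, the adaptor that carries signals of microglial and myeloid receptors, rose by 2.98 ± 0.17.

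Homeostatic microglia genes were higher too, and by less. Of 14 tested, 11 were higher and 1 lower, with a median of 1.24, and without day 3 replicate 2 it was 12 and none. The Fc receptor-like gene Fcrls rose by 3.37 ± 0.22 and Olfml3 by 3.18 ± 0.18. Cx3cr1, the fractalkine receptor, read 8.51, 8.29, 8.50 and 8.42 in sham and 10.23, 8.79, 10.05 and 10.42 at day 3, so that replicate 2 was close to the controls and the other 3 were far above them. P2ry12, the purinergic receptor that marks surveying microglia, was not called: it had 8.01 ± 0.18 in sham and 8.19 ± 0.72 at day 3 (adjusted p 0.647), with overlapping groups. Siglech was called lower at −0.73 ± 0.30, but that call was lost without replicate 2 (−0.30, adjusted p 0.309) and without any of sham replicates 1 to 3.

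Chemokines that recruit monocytes, and their receptors, were higher in 12 of 14 genes, with a median of 3.77. In 9 of the 14, 1 group mean was under log2 4, so the filter favoured an increase. Ccl2, the main attractant of inflammatory monocytes, read 2.58, 3.82, 2.68 and 2.68 in sham and 8.63 to 9.31 at day 3, a difference of +6.07 ± 0.31 or more. Ccl7 rose by 4.11 ± 0.41, Ccl12 by 4.87 ± 0.35 and Ccl3 by 4.79 ± 0.36, all lower bounds. Their receptor genes differed between arrays: Ccr1 read 7.40, 9.52, 8.04 and 6.79 at day 3, highest on replicate 2, while Ccr2, the receptor for Ccl2, read 5.80, 2.72, 5.77 and 5.54, with replicate 2 inside the sham range of 2.17 to 2.73. Both were called, at +4.40 ± 0.44 or more and +2.48 ± 0.55 or more.

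The list of cytokines, their receptors and CXC chemokines had 11 higher and 1 lower of 14 tested (median 1.88). In 8 of the 14, 1 group mean was under log2 4, where the filter set the direction in part. Its leading genes included the interleukin 1 receptor Il1r1 at +4.16 ± 0.34 or more, and Casp1, which cleaves pro-interleukin 1, at +2.63 ± 0.15. Il1b itself had 3.82 ± 0.05 in sham and 4.83 ± 0.49 at day 3, a difference of +1.01 ± 0.40 or more (adjusted p 0.031). That call was lost without day 3 replicate 3 (+0.85, adjusted p 0.0957), without replicate 4 and without any of sham replicates 1 to 3. Il6 was not called (+1.14 ± 0.66 or more, adjusted p 0.134), and without replicate 2 its difference was +0.15. The single decrease was Il18, at −0.25 ± 0.08. Tnf and Il1a were not analysed here.

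Lysosome genes were higher in 18 of 21 and lower in none, with a median of 1.74. Lyz2, lysozyme of myeloid cells, read 9.61, 10.01, 9.48 and 9.19 in sham and 14.35, 12.70, 14.29 and 13.98 at day 3. The cathepsin genes Ctsc, Ctsh and Ctsz rose by 4.26 ± 0.20, 3.04 ± 0.22 and 2.71 ± 0.12, and Grn, for the lysosomal progranulin, by 2.80 ± 0.11. Lamp1, a membrane protein of lysosomes in all cells, rose by only +0.14 ± 0.05 (adjusted p 0.0229), a call that was lost without day 3 replicate 1 or 3 or without sham replicate 1 or 2 (adjusted p 0.0897 for the latter). Antigen presentation genes were higher in 13 of 13 tested (median 1.53), where 4 had a sham mean under log2 4, so that the filter favoured an increase. H2-K1, of MHC class I, rose by 1.32 ± 0.14, on all 4 arrays. The class II genes H2-Aa and H2-Ab1 rose on 3 arrays: H2-Aa read 9.54, 6.78, 9.58 and 9.53 against 5.93 to 6.65 in sham, with replicate 2 next to the controls. Of 14 interferon-induced genes, 8 were higher and none lower, with Bst2 at +3.03 ± 0.34 and Ifit1 not called (+0.93 ± 0.64, adjusted p 0.206), except without sham replicate 3 (+1.55, adjusted p 0.0355). Here 5 of the 14 had 1 group mean under log2 4, where the filter set the direction in part.

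Few genes of neutrophils, red cells and lymphocytes were called. Csf3r, the receptor for granulocyte colony-stimulating factor, was the only called gene of 11 tested neutrophil genes, at +1.16 ± 0.24. S100a8, a granule-associated calcium-binding protein, had 11.95 ± 1.12 in sham and 12.20 ± 0.80 at day 3, so the control arrays already held a strong signal. Ltf and Camp, of neutrophil granules, ran from 6.21 to 8.64 and 6.95 to 9.90 in sham. Neither of the 2 tested red cell genes was called: Alas2 read 4.34, 8.56, 5.31 and 4.34 at day 3, high on replicate 2. Of the lymphocyte list only Thy1 was tested, which neurons also express, and it fell by 0.89 ± 0.14.

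Genes that handle heme and iron were split. Of 15 tested, 10 were higher and 2 lower. Besides Hmox1, the phagosomal metal transporter Slc11a1 rose by 4.10 ± 0.27, the iron-carrier binding protein Lcn2 by 4.00 ± 0.57, the copper ferroxidase Cp by 3.22 ± 0.47, and Blvrb, which acts on the product of heme breakdown, by 1.71 ± 0.17. Slc40a1, the iron exporter, read 8.68, 7.15, 8.34 and 8.58 at day 3 against 7.14 to 7.52 in sham, again with replicate 2 low, and was not called when only the day 3 and sham arrays were fitted (adjusted p 0.0525). Fth1, ferritin heavy chain, was at 15.64 ± 0.03 and 15.64 ± 0.04, near the top of the scale. The transferrin receptor Tfrc fell by 0.69 ± 0.13.

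All 21 tested genes of reactive astrocytes were higher at day 3, the median difference being 4.00. For 5 of them the sham mean was under log2 4, so the filter favoured an increase. Serpina3n, a serine protease inhibitor, read 6.49, 6.14, 6.38 and 6.42 in sham and 11.73, 12.36, 11.90 and 11.58 at day 3, a difference of +5.54 ± 0.14 (adjusted p 2.83e-22). Tgm1, a transglutaminase, rose by 5.58 ± 0.26 or more, the pentraxin Ptx3 by 4.48 ± 0.21 and the membrane protein Cd109 by 4.41 ± 0.23 or more. The intermediate filament gene Vim rose from 11.54 ± 0.55 to 15.28 ± 0.03, and Gfap, already high in control astrocytes, from 12.00 ± 0.17 to 13.31 ± 0.38. Several of these genes are also expressed by macrophages, fibroblasts or vessels, and the list does not separate them.

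Genes of resting astrocytes mostly went down, with a median of −0.52: of 20 tested, 11 were lower and 1 higher. Without day 3 replicate 2 the median was −0.248, with 10 lower and 2 higher. After Dao came the GABA transporter Slc6a11, from 9.47 ± 0.09 to 7.58 ± 0.49, and Gpc5, from 9.85 ± 0.16 to 8.70 ± 0.20. Slc7a10, a transporter of D-serine and alanine, read 8.51, 6.14, 8.28 and 8.48 at day 3 against 8.94 to 9.13 in sham, and it was not called when only the day 3 and sham arrays were fitted (adjusted p 0.081). Slc1a2, the main glutamate transporter, fell by 0.58 ± 0.14 (adjusted p 0.000782), with 1 of its 5 probe sets called in the opposite direction at +0.39. Aldh1l1, a folate enzyme used as a pan-astrocyte marker, was the single gene that rose, by 1.24 ± 0.13. The water channel Aqp4 and the potassium channel Kcnj10 were not called, at +0.02 ± 0.19 and −0.33 ± 0.17, although Kcnj10 was called lower without day 3 replicate 1 or 4 (−0.46, adjusted p 0.0198, for the latter). On replicate 2 both were low: Aqp4 read 13.03 there and 14.28 to 14.50 on the other 3 arrays, and without it Aqp4 was higher at day 3 (+0.37, adjusted p 0.00308). With all arrays, 1 of the 3 probe sets of Aqp4, not the one used for the gene, was called higher.

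The interleukin 6 receptor family and its STAT3 targets were higher in 9 of 15 tested genes and lower in 1. Socs3, a feedback inhibitor induced by STAT3, read 5.02, 5.14, 5.30 and 4.82 in sham and 10.62, 11.83, 11.09 and 10.42 at day 3, a difference of +5.92 ± 0.27 (adjusted p 1.5e-16). The receptor genes Osmr, for oncostatin M, and Il6ra rose by 4.59 ± 0.23 and 2.87 ± 0.22, and the shared subunit Il6st by 0.84 ± 0.11. Among ligands, Clcf1 rose by 4.47 ± 0.30 or more. Stat3 itself rose by 1.29 ± 0.11. Cntfr, the receptor for ciliary neurotrophic factor, was the decrease, at −0.85 ± 0.13.

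Endothelial genes were higher in 23 of 25 tested, with none lower and a median of 1.21. Vwf, von Willebrand factor, had the largest difference. It read 3.27, 3.72, 5.05 and 4.94 in sham and 9.30, 9.85, 9.99 and 9.47 at day 3, a difference of +5.41 ± 0.51 (adjusted p 6.69e-10). The leukocyte adhesion gene Icam1 rose by 3.95 ± 0.27 or more and the platelet and leukocyte adhesion gene Selp by 2.48 ± 0.46 or more. Junction genes moved the same way: Cdh5, the endothelial cadherin, went from 4.22 ± 0.44 to 7.61 ± 0.66, and Cldn5, the claudin of the blood-brain barrier, from 8.53 ± 0.23 to 10.63 ± 0.23. The glucose transporter Slc2a1 and the lipid transporter Mfsd2a, both of barrier endothelium, rose by 1.12 ± 0.12 and 0.72 ± 0.13.

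Genes of vessel sprouting did not form a single pattern, with 7 higher and 4 lower of 17, where 29% of all genes were higher and 37% lower. Esm1, a tip cell gene, rose by 3.11 ± 0.56 or more, and Angpt2, which destabilises vessels, by 1.52 ± 0.38. Vegfa, the growth factor for endothelium, was lower: it read 8.30, 8.26, 8.27 and 8.06 in sham and 7.48, 6.63, 7.71 and 7.55 at day 3 (−0.88 ± 0.17, adjusted p 8.36e-05). Apln and Unc5b were lower as well, at −0.93 ± 0.12 and −0.97 ± 0.12. Of 12 genes of pericytes and smooth muscle, 9 were higher and none lower. Acta2, smooth muscle actin, rose by 3.11 ± 0.36 and Pdgfrb, a receptor of pericytes and fibroblasts, by 1.59 ± 0.28.

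Matrix genes were higher in 2 groups. Of 21 collagen genes, 14 were higher and 2 lower (median 1.57), and of 23 matricellular and TGF-beta-linked scar genes, 20 were higher and none lower (median 2.73). A group mean under log2 4 occurred in 2 of the 21 and 6 of the 23, where the filter set the direction in part. Fn1, fibronectin, read 6.53, 7.69, 10.10 and 8.08 in sham and 12.11, 12.04, 12.47 and 11.67 at day 3. That gene shows how uneven the controls were for matrix, since its sham arrays spread over more than 3 log2 units and still lay below every day 3 array (+3.97 ± 0.50, adjusted p 1.57e-07). The basement membrane collagens Col4a1 and Col4a2 rose by 3.39 ± 0.46 and 2.36 ± 0.43, and the fibrillar collagen Col3a1 by 3.09 ± 0.78. Col1a1 was not called: its sham arrays read 4.57, 8.90, 6.96 and 8.45 and its day 3 arrays 8.65, 7.00, 9.18 and 8.02. Col19a1 and Col25a1, which neurons express, were the 2 decreases, at −1.63 ± 0.32 and −1.52 ± 0.28. Of the matricellular genes, Ccn1 rose by 5.36 ± 0.38, thrombospondin Thbs1 by 5.27 ± 0.49 or more, the collagen cross-linking enzyme Lox by 4.61 ± 0.75 or more and tenascin C, Tnc, by 4.33 ± 0.27.

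Of 16 genes of chondroitin sulfate proteoglycans and perineuronal nets, 9 were higher and 4 lower. Vcan, versican, and Cspg4, the NG2 proteoglycan, rose by 1.65 ± 0.13 and 1.75 ± 0.17, and Ncan, neurocan, by 0.62 ± 0.17. The link protein genes Hapln1 and Hapln4 and the brain proteoglycan Bcan fell, with differences of −2.17 ± 0.26, −1.70 ± 0.23 and −1.21 ± 0.13. Of 23 metalloproteinase and inhibitor genes, 13 were higher and 3 lower. Adam8, a myeloid protease, rose by 6.04 ± 0.29 or more, Mmp19 by 3.54 ± 0.22 or more and Mmp14, which sits on the cell surface, by 1.43 ± 0.24. Among inhibitors Timp1 rose, while Timp2 fell by 0.36 ± 0.09. For Timp2 the 5 probe sets disagreed, since 4 were called lower and 1 higher, at +1.76, and their mean did not differ between the groups beyond its spread (+0.04, adjusted p 0.681).

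Cell division genes rose at day 3. Of 31 tested genes of G2 and mitosis, 30 were higher and 1 lower, and their median difference was 4.06. In 20 of the 31, 1 group mean was under log2 4, which makes the difference a lower bound with a direction set in part by the filter. Cdk1, the kinase that starts mitosis, read 3.74, 4.07, 3.54 and 3.65 in sham and 9.14, 8.30, 8.91 and 8.88 at day 3 (+5.06 ± 0.21 or more, adjusted p 1.98e-17). Top2a, which untangles DNA, rose by 5.23 ± 0.28, the checkpoint kinase Bub1 by 5.08 ± 0.29 or more, cyclin B2, Ccnb2, by 5.02 ± 0.23 or more and the spindle gene Nusap1 by 4.76 ± 0.28 or more. Mki67, the usual marker of dividing cells, read 5.17, 6.67, 4.20 and 5.73 in sham and 10.27, 9.56, 10.16 and 10.08 at day 3. The decrease was Anln, which is also expressed by oligodendrocytes, at −0.26 ± 0.10, and it was not called without day 3 replicate 2 (−0.17, adjusted p 0.142) or without sham replicate 1 or 3.

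All 23 tested DNA replication genes were higher (median 1.78), 5 of them from a sham mean under log2 4, where the filter favoured an increase. Rrm2, which makes deoxynucleotides, rose by 4.41 ± 0.28, the helicase subunit genes Mcm3 and Mcm5 by 3.60 ± 0.26 and 3.21 ± 0.23, and Pcna, the polymerase clamp, by 1.14 ± 0.10. Of 23 genes of the G1/S step, 17 were higher and 2 lower. The licensing genes Cdt1 and Cdc6 rose by 2.83 ± 0.22 and 2.60 ± 0.29 or more, and cyclin D1, Ccnd1, by 1.89 ± 0.13. E2f1 and cyclin E1, Ccne1, were not called, at +0.33 ± 0.19 and −0.13 ± 0.08. For E2f1 the other of its 2 probe sets was called higher, and the gene was called with the mean of both (adjusted p 0.0131), with array weights (0.0118) and when only the day 3 and sham arrays were fitted (0.0165). The inhibitors of cyclin-dependent kinases differed: Cdkn1a, the p53 target p21, rose by 1.80 ± 0.30 and read 11.40 on replicate 2 against 9.10 to 9.46 on the others, Cdkn2c rose by 3.21 ± 0.20, and Cdkn1c and Cdkn1b fell, with differences of −1.79 ± 0.25 and −0.29 ± 0.09.

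Promoter stretches of cell cycle genes are shown here for the short sequences they hold, of which CCAAT is not particular to these genes. They are from RefSeq (GRCm38.p6), 5′ to 3′ on the strand of the gene. Capitals mark CCAAT, bound by the factor NF-Y, and TTTGAA, the core of the cell cycle homology region, or their reverse complements ATTGG and TTCAAA, and, in Cdc6, GCGGGAA, a core of E2F sites. Cdc20, which activates the anaphase-promoting complex, and Ube2c, which works with it, were chosen for display after their values were seen, and rose by 3.97 ± 0.20 and 5.25 ± 0.38 or more.
Ccnb2, chr9:70421555-70421654, minus strand, bases −100 to −1: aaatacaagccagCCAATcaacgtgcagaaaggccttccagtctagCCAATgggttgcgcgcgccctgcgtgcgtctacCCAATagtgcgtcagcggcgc
Cdc20, chr4:118437344-118437443, minus strand, bases −100 to −1: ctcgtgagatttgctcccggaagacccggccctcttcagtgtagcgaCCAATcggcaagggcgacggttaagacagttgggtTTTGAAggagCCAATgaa
Ube2c, chr2:164769829-164769928, plus strand, bases −100 to −1: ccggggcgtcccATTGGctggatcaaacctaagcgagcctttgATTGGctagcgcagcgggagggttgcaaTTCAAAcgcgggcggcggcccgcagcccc
Cdk1, chr10:69352913-69353012, minus strand, bases −100 to −1: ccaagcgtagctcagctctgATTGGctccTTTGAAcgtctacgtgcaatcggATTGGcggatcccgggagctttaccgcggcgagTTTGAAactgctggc
Cdc6, chr11:98907981-98908080, plus strand, bases −170 to −71: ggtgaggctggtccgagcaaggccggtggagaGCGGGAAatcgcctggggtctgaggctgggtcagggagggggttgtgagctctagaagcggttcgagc

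The Ccnb2 stretch holds CCAAT at −87, −54 and −21 from the start of the gene. Cdk1 holds it at −80 and −48 with TTTGAA at −71 and −15. Of 27 G2 and mitosis genes with a promoter in the table, 20 had CCAAT on either strand within 300 bases (250 before to 50 after the start), against 3706 of 9677 tested genes (38.3%). CCAAT was as frequent in some other lists, with 8 of 10 antigen presentation, 15 of 20 heat shock and 15 of 16 cholesterol synthesis promoters. In others it was rarer, down to 0 of 9 monocyte chemokine and receptor promoters. TTTGAA was in 21 of the 27, against 11.3% of all, and in 2 of 19 DNA replication promoters. GCGGGAA was in 9 of 19 DNA replication promoters, 6 of 17 G1/S promoters and 0 of the 27, against 8.2% of all. These matches describe letters in the reference sequence, and binding was not measured.

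Cholesterol synthesis genes were lower in 18 of 19 tested, and none was higher, with a median of −0.96, where 37% of all genes were lower. Mvd, a decarboxylase of the mevalonate pathway, read 7.50, 7.23, 7.73 and 7.57 in sham and 6.12, 5.50, 6.39 and 6.23 at day 3, a difference of −1.45 ± 0.17 (adjusted p 3.52e-08). The late-step genes Dhcr7 and Lss fell, with differences of −1.36 ± 0.18 and −1.34 ± 0.14, and the isoprenoid genes Idi1 and Fdps fell, with differences of −1.26 ± 0.14 and −1.26 ± 0.14. Hmgcs1, the synthase at the head of the pathway, went from 14.35 ± 0.14 to 13.32 ± 0.33, and the squalene epoxidase Sqle from 10.77 ± 0.20 to 9.73 ± 0.32. Genes that store and export cholesterol went the other way in 9 of 16, with 3 lower. After Ch25h came the mitochondrial cholesterol carrier Star at +3.63 ± 0.27 or more, the exporter Abca1 at +2.54 ± 0.15 and the lysosomal lipase Lipa at +1.72 ± 0.19. Cyp46a1, the neuronal cholesterol hydroxylase, and Cyp27a1 fell, with differences of −1.29 ± 0.21 and −0.78 ± 0.14. Abcg1 was not called (+0.01 ± 0.15).

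The promoters of 2 genes of the pathway are shown for the letters they share. Capitals mark CCAAT or its reverse complement ATTGG, and in Hmgcs1 also TCACCCCA, a match to the sterol regulatory element TCACNCCA. Cyp51, lanosterol demethylase, was chosen for display after its values were seen and fell by 0.96 ± 0.12. Of 16 cholesterol synthesis promoters, 15 had CCAAT and 3 had TCACNCCA, against 38.3% and 3.6% of all 9677.
Hmgcs1, chr13:119690201-119690350, plus strand, bases −150 to −1: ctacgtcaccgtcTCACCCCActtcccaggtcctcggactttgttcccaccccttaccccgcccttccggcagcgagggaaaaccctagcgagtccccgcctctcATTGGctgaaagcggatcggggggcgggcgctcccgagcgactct
Cyp51, chr5:4104698-4104797, minus strand, bases −100 to −1: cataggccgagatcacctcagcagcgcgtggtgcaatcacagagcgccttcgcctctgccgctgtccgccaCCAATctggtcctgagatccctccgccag

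Myelin genes were lower in 14 of 17 tested, by small amounts (median −0.42). Ugt8a, which makes the myelin lipid galactosylceramide, read 14.14, 14.01, 14.13 and 14.33 in sham and 13.31, 11.03, 13.43 and 13.42 at day 3 (−1.35 ± 0.29, adjusted p 0.000248), and on replicate 2 it was lowest. When only the day 3 and sham arrays were fitted it was not called (adjusted p 0.0556). Fa2h, another myelin lipid enzyme, fell by 1.26 ± 0.20, Ermn fell by 0.89 ± 0.19 and Opalin fell by 0.88 ± 0.14. Mbp, a structural protein of myelin, went from 15.77 ± 0.03 to 15.63 ± 0.02, near the top of the scale, a difference that was not called in that fit (adjusted p 0.0863) or after quantile scaling (−0.07, adjusted p 0.129). Mog fell by 0.44 ± 0.13. The tight junction gene Cldn11 rose by 0.36 ± 0.11. Genes of the precursors did not move together, with 3 higher and 2 lower of 14, and 6 higher and 1 lower without replicate 2. Cspg4 and Pdgfra, the growth factor receptor of precursors, rose, the latter by 0.97 ± 0.18. Both genes also mark pericytes or fibroblasts. Enpp6, of newly forming oligodendrocytes, fell by 0.97 ± 0.16. Gpr17 was higher at day 3 only without replicate 2 (+1.07, adjusted p 0.00466). The Schwann cell list had 3 higher of 5 tested, with Pmp22 at +0.99 ± 0.29.

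Every one of the 24 tested pan-neuronal and synaptic genes was lower at day 3, with a median of −0.84. Over these genes the array mean was 11.86 to 11.89 in sham and 10.77 to 11.2 at day 3. Syt1, the calcium sensor of synaptic vesicles, read 10.52, 10.61, 10.79 and 10.68 in sham and 9.30, 9.17, 8.62 and 9.33 at day 3 (−1.54 ± 0.31, adjusted p 9.8e-05). Rbfox3, the nuclear protein NeuN, fell by 1.31 ± 0.25, Elavl4 fell by 1.39 ± 0.22, the intermediate filament Ina fell by 1.33 ± 0.18, and Snap25, of the vesicle fusion machinery, fell by 0.67 ± 0.15.

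Inhibitory neuron genes were lower in 16 of 16, with a median of −1.21. Slc32a1, the vesicular transporter of GABA and glycine, read 10.42, 10.46, 10.42 and 10.36 in sham and 9.22, 8.78, 9.30 and 9.47 at day 3 (−1.22 ± 0.22, adjusted p 2e-05). The glycine receptor subunits Glra2, Glra3 and Glrb fell, with differences of −1.76 ± 0.40, −1.38 ± 0.38 and −1.27 ± 0.23, and the GABA-synthesising enzymes Gad1 and Gad2 fell, with differences of −1.10 ± 0.25 and −1.02 ± 0.24. Genes of excitatory and dorsal horn neurons were lower in 15 of 20 (median −1.04). Slc17a6, the glutamate transporter of spinal excitatory neurons, fell by 1.08 ± 0.20, and the peptide genes Tac2 and Sst fell, with differences of −1.97 ± 0.72 and −1.51 ± 0.34. Tac2 was not called without day 3 replicate 3 (−1.71, adjusted p 0.062). Tac1, which encodes substance P, was not called (−0.23 ± 0.31). Of 6 tested motor neuron genes 5 were lower. Chodl, of fast motor neurons, went from 9.72 ± 0.12 to 8.08 ± 0.49, and Ache, acetylcholinesterase, from 7.34 ± 0.11 to 5.76 ± 0.50. Chat was not analysed here.

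Ion channel genes followed. Of 25 potassium channel genes, 21 were lower and 2 higher, and of 21 sodium and calcium channel genes, 19 were lower and none higher. Kcnj3 and Kcnip4, of neuronal inward rectifiers and A-type currents, fell, with differences of −1.71 ± 0.29 and −1.65 ± 0.21, and the sodium channel subunits Scn4b, Scn1a and Scn8a fell, with differences of −1.55 ± 0.24, −1.33 ± 0.23 and −1.19 ± 0.20. The T-type calcium channel gene Cacna1g fell by 1.63 ± 0.30. The increases were Kcnk6, a leak channel, from 4.79 ± 0.45 to 7.76 ± 0.23, and Kcnn4, a calcium-activated channel of immune cells, at +1.72 ± 0.39 or more. Axon guidance genes were lower in 16 of 28 and higher in 4. The netrin receptor Dcc fell by 1.43 ± 0.20, Robo2 and its ligand Slit1 fell, with differences of −1.33 ± 0.17 and −1.37 ± 0.25, and Sema3a, a repellent, fell by 0.88 ± 0.19, although the mean of its probe sets gave −0.10 (adjusted p 0.703). Nrp1, a semaphorin and VEGF co-receptor, and netrin 1, Ntn1, rose by 1.07 ± 0.19 and 1.00 ± 0.17.

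Most genes of a list for regenerating or stressed neurons were higher, and the list does not separate neurons from other stressed cells. Of 18 tested, 13 were higher and 4 lower. Atf3, a transcription factor of injured neurons and other stressed cells, read 2.54, 2.27, 3.70 and 3.41 in sham and 7.50, 7.02, 7.85 and 7.28 at day 3 (+4.43 ± 0.34 or more, adjusted p 8.7e-12). The small heat shock gene Hspb1 rose by 4.17 ± 0.23, Sox11 by 0.99 ± 0.15, and Gap43, of growth cones, by 0.39 ± 0.11. The neuropeptide Vip fell by 1.82 ± 0.41, and the calcium channel subunit Cacna2d1 fell by 1.09 ± 0.24. Immediate early and AP-1 genes were higher in 14 of 18 and lower in 1. Fos and Jun rose by 2.05 ± 0.18 and 1.28 ± 0.12, Fosl2 by 2.50 ± 0.20 and Egr1 by 1.05 ± 0.14. Myc rose by 2.92 ± 0.24 and Egr2 by 3.82 ± 0.36, both lower bounds, while Egr3, an activity-dependent factor of neurons, fell by 1.27 ± 0.30.

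Neurotrophin and growth factor receptor genes were called at about the shares of all genes, 29% higher and 37% lower. Of 8 tested, 2 were higher and 3 lower, and without day 3 replicate 2 there were 4 and 3. Ntrk2, which encodes trkB, was represented by the probe set 1458622_at, which read 11.10, 11.14, 11.09 and 11.10 in sham and 9.88, 9.34, 9.72 and 10.01 at day 3 (−1.37 ± 0.21, adjusted p 2.88e-06). Of its 6 tested probe sets, 4 were lower at day 3, and 2 were not called. The 2 were 1420838_at, which went from 10.39 ± 0.21 to 10.65 ± 0.15, and 1435196_at, which went from 9.72 ± 0.11 to 9.08 ± 0.34. Their limma standard errors, 0.66 and 0.668, carry the spread of the sham knockout arrays (SD 2.685 and 2.883), and at day 3 both were low in knockout cord (3.896 ± 0.722 and 2.826). Bdnf, the ligand, had 6.82 ± 0.15 in sham and 6.82 ± 0.54 at day 3. Ntrk3 fell by 0.77 ± 0.15, and the GDNF receptor genes Gfra1 and Ret rose by 0.87 ± 0.09 and 0.57 ± 0.12.

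Genes of energy metabolism and of the ribosome changed by small amounts. Of 48 tested genes of oxidative phosphorylation, 41 were lower and none higher, with a median of −0.345. Ndufs1, of complex I, fell by 0.66 ± 0.08, and Cox4i1, of complex IV, fell by 0.35 ± 0.06. Cytosolic ribosomal protein genes were higher in 29 of 30 tested (median 0.492), and Rplp0 rose from 13.41 ± 0.06 to 14.61 ± 0.14. Of 22 glycolysis genes, 7 were higher and 9 lower, close to the 29% and 37% of all genes. The hexokinases Hk2 and Hk3 rose by 3.24 ± 0.31 and 1.95 ± 0.39 and lactate dehydrogenase Ldha by 1.55 ± 0.15, while Hk1 was not called (−0.13 ± 0.07).

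Most stress genes were higher. Of 22 heat shock and unfolded protein response genes, 12 were higher and 5 lower, with Ddit3, or CHOP, at +0.99 ± 0.12 and the endoplasmic reticulum chaperone Hspa5 at +0.71 ± 0.11, and with Hsph1 at −0.89 ± 0.14. Metallothionein and oxidative stress genes were higher in 11 of 15 and lower in 1. Mt2 rose by 1.15 ± 0.08 and Gpx1, a peroxidase, by 1.83 ± 0.10, and the cystine importer Slc7a11 by 2.12 ± 0.41. Nqo1 was not called (+0.14 ± 0.14). Cell death and p53 target genes were higher in 13 of 15 and lower in none (median 1.56). Casp8 rose by 3.58 ± 0.20, the TNF receptor Tnfrsf1a by 2.72 ± 0.16 and the death receptor Fas by 1.71 ± 0.19. Annexins and their S100 partners were higher in 12 of 14, led by S100a4 at +5.27 ± 0.31 and Anxa3 at +3.76 ± 0.24, and S100b, of astrocytes and oligodendrocytes, fell by 0.62 ± 0.07. Of 13 circadian clock genes, 3 were higher and 7 lower, where 29% of all genes were higher and 37% lower. Per1 rose by 1.31 ± 0.25, and Dbp and Hlf fell, with differences of −1.11 ± 0.23 and −1.32 ± 0.27. The labels do not state the hour at which tissue was taken.

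**Figure D4:**
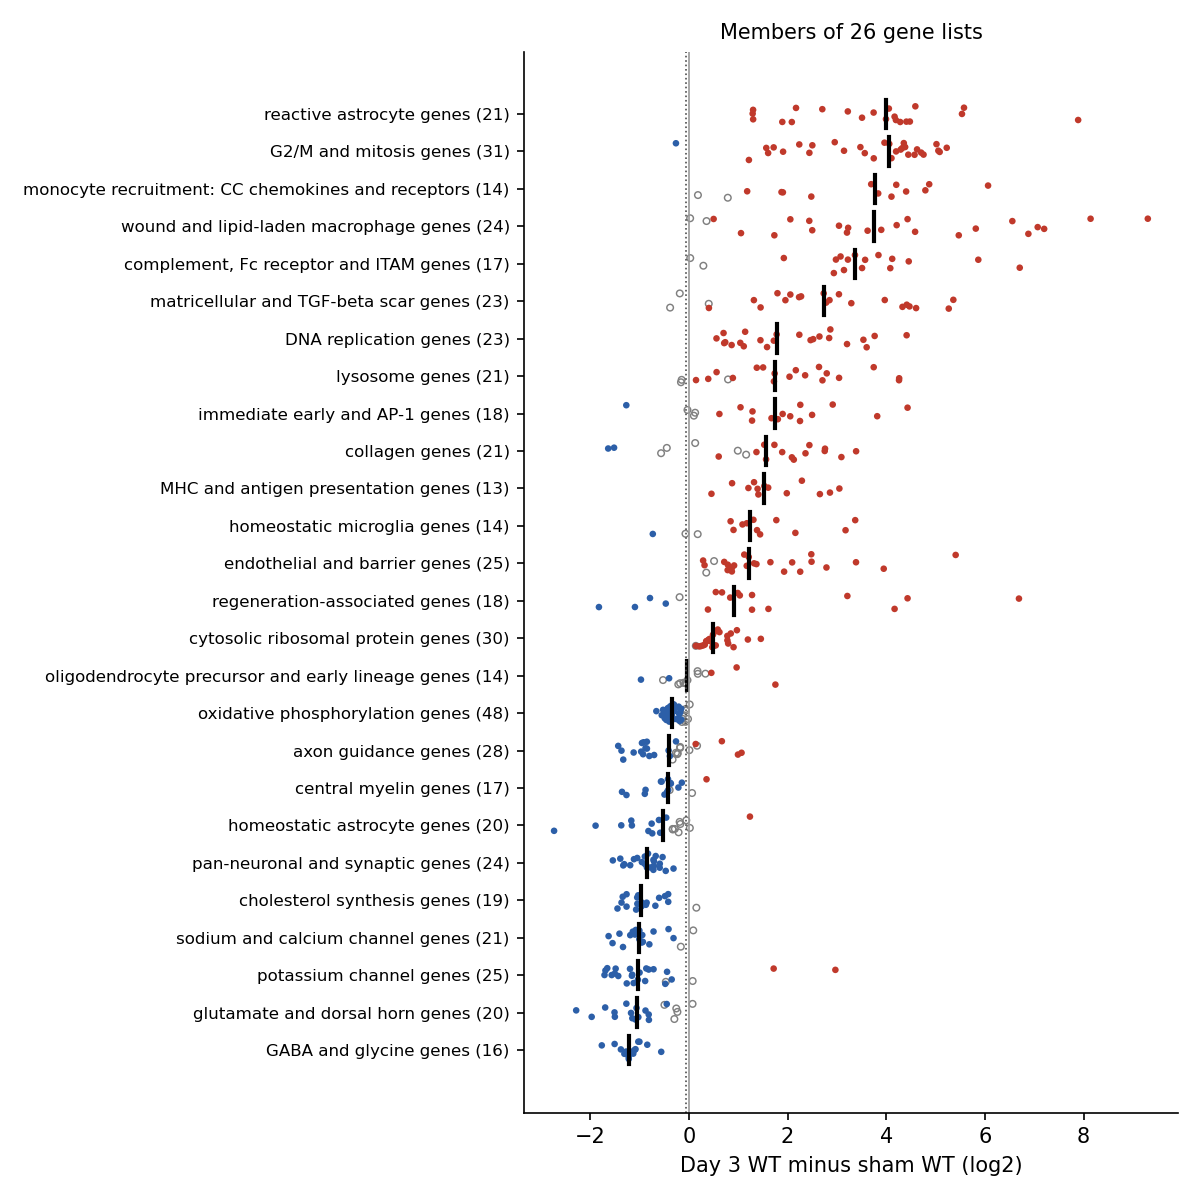
Differences between day 3 and sham (x axis, log2) for the members of 26 gene lists, 1 list per row. Filled red and blue points were called higher or lower, open points were not called, the black bar is the list median and the dotted line is the median of all genes at −0.06. Mitosis, reactive astrocyte and macrophage genes lie far to the right and neuronal and channel genes to the left.

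Day 3 was then set against day 1 and day 7, to place its values between the earlier and the later time. All 3 comparisons that follow share the day 3 arrays. Against day 1, 3702 genes (30.9%) were called, 1769 (14.7%) higher at day 3 and 1933 (16.1%) lower. From day 3 to day 7, 2593 genes (21.6%) were called, 1228 (10.2%) higher at day 7 and 1365 (11.4%) lower. Against the mean of day 1 and day 7, 1746 genes (14.6%) were called, 926 (7.72%) higher at day 3 and 820 (6.83%) lower. The shares of these 3 comparisons are those to set beside their list counts below. Without day 3 replicate 2 the count of probe sets higher at day 7 than at day 3 dropped from 2122 to 1379, and that of probe sets lower at day 3 than the mean of both days from 1642 to 746. The latter count was 1083 without day 7 replicate 2. On 2 of the 5 day 1 arrays, replicates 1 and 2, the source and time fields name day 7 and sham, and the titles were followed. The mean of the reactive astrocyte list was 10.57 and 10.56 on them and 10.2 to 10.62 on the other 3 day 1 arrays, against 6.38 to 6.65 in sham and 9.0 to 9.33 at day 7. On the second principal component of all 34 arrays they lay at −50.4 and −38.13, the other 3 at −52.07 to −40.22, sham at 7.327 to 15.01 and day 7 at 35.84 to 44.15. By both measures the 2 arrays lay with the other day 1 arrays or next to them, apart from sham and day 7.

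Mitosis genes peaked at day 3. Of the 31, 30 were higher at day 3 than at day 1, 31 were lower at day 7 than at day 3, and 30 were above the mean of both. The list mean was between 6.93 and 7.83 on the day 3 arrays, above the 4.55 to 5.16 of day 1, the 5.4 to 6.04 of day 7 and the 3.81 to 4.11 of sham, with no overlap between any of the 4 groups. Ccnb2 read 3.21, 3.52, 3.52, 4.19 and 4.48 on the 5 day 1 arrays, 8.45, 7.91, 8.47 and 8.33 at day 3 and 6.37, 5.78, 6.26 and 6.69 at day 7. Kif20a, a kinesin of cytokinesis, exceeded the mean of both other days by 3.78 ± 0.19 or more (adjusted p 3.92e-14), the largest such difference of all called genes. Ckap2, Cenpf, Aspm, Ube2c, Hmmr, Aurka, Tpx2 and Cenpa, all of the mitotic machinery, were with Ccnb2 the next 9. Of the 10 largest increases from day 1 to day 3, 8 were from this machinery, led by Ckap2 at +4.60 ± 0.32, and the others were Cd5l and Gpnmb. DNA replication genes differed less from day 1: 9 of 23 were higher at day 3 than at day 1 and 21 were lower at day 7. Mcm3 went from 8.02 ± 0.21 at day 1 to 8.13 ± 0.28 at day 3, a difference that was not called (+0.11 ± 0.25, adjusted p 0.788).

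Of 25 endothelial genes, 17 were above the mean of day 1 and day 7 at day 3 and 1 was below, and 13 and 0 without replicate 2. Against day 1 alone, 11 were higher at day 3 and none lower, and 8 and 1 without replicate 2. From day 3 to day 7, 18 of the 25 fell, and 6 did when only the day 3 and day 7 arrays were fitted. Cldn5 read 9.32, 9.09, 9.32, 9.25 and 9.26 at day 1, 10.56, 10.87, 10.74 and 10.35 at day 3 and 9.43, 8.22, 9.02 and 10.07 at day 7 (+1.41 ± 0.25 against the mean of both days, adjusted p 0.000328). Pecam1, a junction gene of endothelium, fell by 2.54 ± 0.46 or more from day 3 to day 7.

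Lysosome and microglia genes rose from day 1 to day 3 and again to day 7. Of 21 lysosome genes, 18 were higher at day 3 than at day 1 and 18 higher at day 7 than at day 3, or 9 when only the arrays of those 2 groups were fitted. Of 14 microglia genes, 12 were higher at day 3 than at day 1 and 8 rose further by day 7, or 3 in the fit of those 2 groups. Gpnmb went from 7.33 ± 0.93 at day 1 to 11.07 ± 0.94 at day 3 and 13.44 ± 0.15 at day 7. P2ry12, which at day 3 was near its sham mean, had 5.21 ± 0.25 at day 1, below every sham array, and rose by 2.98 ± 0.31 from day 1 to day 3 (adjusted p 2.13e-08). Cd5l, a secreted protein of tissue macrophages, rose by 4.28 ± 0.36 or more from day 1 to day 3. Atp6v0d2 and Mcoln3, of the lysosomal proton pump and a lysosomal channel, and the elastase Mmp12 were the 3 largest increases to day 7, at +5.10 ± 0.35, +4.33 ± 0.17 and +4.56 ± 0.62, of which those of Atp6v0d2 and Mcoln3 are lower bounds. The next 7 were 9630013A20Rik, the heparanase Hpse, the cystatin Cst7, Kcne1l, Mia, C1qtnf3 and Rassf10. At day 3 the first 3 read 2.85 to 3.61, 2.30 to 2.80 and 2.54 to 5.91. Mia read 3.14 on day 3 replicate 2 and 6.16 to 6.42 on the other day 3 arrays.

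Several early inflammatory genes were lower at day 3 than at day 1. The neutrophil-attracting chemokine Cxcl3 read 8.91, 9.32, 8.18, 8.28 and 8.47 at day 1 and 2.83, 5.48, 5.21 and 2.24 at day 3, a difference of −4.69 ± 0.63 that is a lower bound (adjusted p 2.04e-06). Cxcl2 fell by 3.17 ± 0.71 and Il6 fell by 2.98 ± 0.62 or more. The chemokine Ccl4, the stress peptide Ucn2, the AP-1 gene Fosl1, the acute-phase gene Saa1, the lymphatic and perivascular macrophage receptor Lyve1, the cytokine Il11 and the interferon-induced Gbp2 made up the 10 largest decreases, from −2.44 ± 0.41 for Ccl4 to −1.89 ± 0.32 for Gbp2. Day 3 replicate 2 did not share the fall of Il6 and Il11: it read 6.28 and 5.755, against day 1 means of 6.30 and 5.22. For Ccl4 it was the lowest, at 3.60 against 6.395 to 6.525 on the other day 3 arrays. In day 3 against sham, Cxcl2 and Cxcl3 were called with 2 of 4 day 3 arrays high (2.42, 5.97, 5.18 and 2.43 for Cxcl2), and neither was called without replicate 2, at +1.17 and +1.13, nor without replicate 3 or any of sham replicates 1 to 3. Cxcl2 was also not called without sham replicate 4. Of 14 monocyte chemokine and receptor genes, 7 were lower at day 3 than at day 1 and 3 higher. From day 3 to day 7, Ccl2 fell by 3.44 ± 0.31 and Ccl7 fell by 3.46 ± 0.41. Arg1 and Hmox1 were high at day 1 and day 3 and were the largest decreases to day 7, at −4.17 ± 0.44 and −4.03 ± 0.34. Kif20a, the acute-phase gene Lrg1, Clcf1, the mitotic kinase Aurka, Crym and Tmem252 completed the 10 largest decreases to day 7. Tmem252 read 10.04 on day 3 replicate 2 and 6.70 to 8.59 on the other day 3 arrays. Arg1 read 11.70, 11.57, 10.85, 11.61 and 10.80 at day 1 and 9.26, 6.53, 7.71 and 7.16 at day 7. Reactive astrocyte genes were lower at day 7 in 12 of 21 and higher in none.

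Cholesterol synthesis genes were lower at day 3 than at day 1. The list mean lay between 8.9 and 9.25 on the day 3 arrays, below the 9.84 to 10.12 of sham and the 9.82 to 9.97 of day 1, and between 8.58 and 8.92 at day 7. Of the 19, 16 were lower at day 3 than at day 1, and 10 fell further by day 7, or 4 in the fit of the day 3 and day 7 arrays alone. Lss went from 9.62 ± 0.11 at day 1 to 8.31 ± 0.10 at day 3 (−1.31 ± 0.13, adjusted p 1.44e-08). At day 1 the list mean overlapped sham, and day 1 against sham was not tested here. Pan-neuronal genes had a list mean of 11.18 to 11.54 at day 1, below the 4 sham arrays, and 9 of 24 were lower at day 3 than at day 1, or 6 without day 3 replicate 2. From day 3 to day 7 none of the 24 was called, with a median of 0.17.

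Some genes were lowest at day 3 or low until day 7. Against the mean of day 1 and day 7, the 10 largest decreases were 9630013A20Rik, Atp6v0d2 at −2.19 ± 0.30 or more, Mcoln3, the interferon-induced chemokine Cxcl10 at −1.87 ± 0.38, Rassf10, Mmp12, Ccl4, Igsf1, the chemokine Ccl5 and Kcne1l. Cxcl10 read 7.97, 7.88, 6.82, 7.67 and 6.98 at day 1, 6.07, 4.48, 5.88 and 5.86 at day 3 and 7.12, 6.87, 7.61 and 8.05 at day 7. Atp6v0d2 was near the floor at day 1 (2.36 ± 0.12) and day 3 (3.09 ± 0.36) and had 8.18 ± 0.45 at day 7, and Mcoln3 had 2.28 ± 0.04, 2.43 ± 0.25 and 6.75 ± 0.21. For these genes the difference from the mean of both days came from day 7. Mmp12 was not called without day 3 replicate 2 (−1.14, adjusted p 0.208), 1 or 4, or without day 7 replicate 1 or 4.

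**Figure D5:**
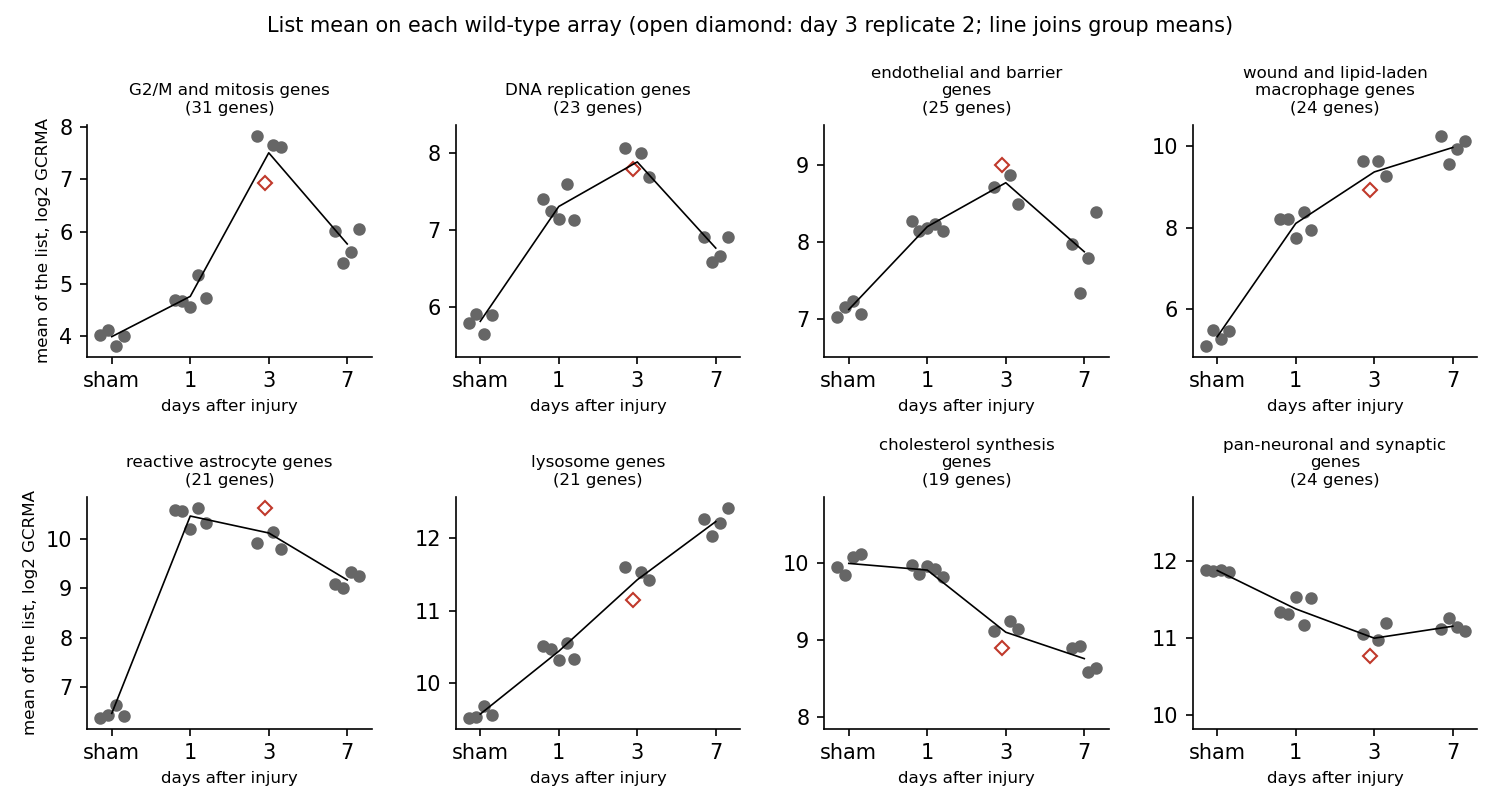
Mean log2 value of each gene list on every wild-type array for 8 lists, in sham and 1, 3 and 7 days after injury. Each point is 1 array (4 sham, 5 day 1, 4 day 3, 4 day 7), lines join group means, and the y axes differ between panels. The mitosis list is highest at day 3, the lysosome list rises to day 7, and the cholesterol synthesis list first drops between day 1 and day 3.

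The knockout response was compared with the wild-type one at day 3 as the difference of differences. No gene was called (limma, 0 of 11998, 0%), and 814 had an unadjusted p under 0.05. The smallest p-values were those of Hoxa10, Plcg2, Hoxc10, Nkd1 and Hoxd9. Hoxa10 had 8.71 ± 0.17 in sham knockout and 7.93 ± 0.55 in day 3 knockout cord and 6.10 ± 1.02 and 7.78 ± 0.62 in wild-type cord, an interaction of −2.45 (adjusted p 0.266). The differences for Plcg2 and Hoxc10 were +1.16 and −1.74. The library labelled sham KO replicate 2 kept signal at the Ntrk2 probe sets that were low on the other knockout arrays.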

How the data were processed

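Whole-genome Affymetrix arrays were labelled from 1 µg of total RNA, per the labels' protocols. The authors deposited log2 expression values made with GCRMA, per the submitters' processing notes; its version is not stated. The deposited log2 values (2.17 to 15.904, with 33.7% within 0.1 of the lowest) were used unchanged. Of 45101 probe sets, 64 controls and 20464 below log2 4 on more than 30 of 34 arrays were left out, which leaves 24573. limma 3.58.1 (R 4.3.3) fitted the means of 8 groups over the 34 arrays by lmFit and eBayes, with Benjamini-Hochberg adjustment over all tested probe sets and a threshold of 0.05. A gene was represented by its brightest probe set that names no other gene (20926 probe sets, 11998 genes); 106 of the 255 genes named with day 3 and sham values had several. In planted data for day 3 against sham (24573 probe sets), 48, 86, 94 and 98% of changes of 0.5, 1, 2 and 4 log2 were recovered. Only 200 probe sets were changed there, on even noise without the floor or an array that stands apart. The rates therefore do not carry over to the real comparison, where 61.8% of probe sets were called. Genes named are the 15 largest changes each way, up to 6 per list with fixed anchors and members called against the list's direction, and up to 10 each way per further comparison; Cdc20 and Cyp51 were added for their promoters. Members, lists and tests were chosen with earlier results of these data known. Arrays give no read depth, so their number limits the precision. Samples were grouped by title. The replicate numbers did not pair the arrays (correlations of deviations −0.0272 to 0.165). Promoters are from RefSeq (GRCm38.p6). Alternatives were other filters, scalings, spread models, array weights, probe set rules, blocks, label readings and single arrays left out.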

Additional observations from a re-analysis of the deposited data

Results flagged for a closer look

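In each group of 4 arrays, the highest or lowest array was compared with the other 3 by the ratio of its gap to the range, against Dixon's 95% critical value. Over 255 genes named with day 3 or sham values there were 510 such groups, and 60 of them held an array that stood apart. For independent, normally distributed values about 1 in 20 groups would be flagged. The groups here share the same arrays, and some sham values tie at the floor, so the 60 cannot be judged against that rate. Day 3 replicate 2 was that array in 29 cases, another day 3 array in 5 and a sham array in 26. Every value below is a log2 value, and what set the arrays apart was not tested.

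In myeloid genes, day 3 replicate 2 was low for Ccl3 at 5.19, Ccr2 at 2.72, Ctsz at 12.87, Fcrls at 9.31, H2-Aa at 6.78, Olfml3 at 9.22 and Siglech at 4.29. In glial genes, day 3 replicate 2 was low for Anln at 11.56, Aqp4 at 13.03, Ermn at 11.51, Fa2h at 7.88, Gfap at 12.73, Gpr17 at 2.58, Kcnj10 at 11.12, Slc1a2 at 13.20, Slc7a10 at 6.14 and Ugt8a at 11.03. It was also low for Abcg1 at 8.90, Cdc20 at 9.79, Cntfr at 4.51, Cxcl10 at 4.48, Hsph1 at 10.46, Lin7b at 4.90 and Ube2c at 7.90. It was high for Cdkn1a at 11.40, Icam1 at 7.36, Il6 at 6.28, Nqo1 at 6.15 and Stat3 at 10.89. The widest gap was that of Gpr17, which the other 3 arrays had at 8.65 to 9.21.

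Day 3 replicate 3 was low for Gad2 at 7.87, Tac1 at 9.71 and Tac2 at 6.91 and high for Mcoln3 at 2.80 and Sprr1a at 9.73. Sham replicate 1 was low for Mmp19 at 2.61 and high for Arg1 at 3.01, Ccl7 at 3.53, Cxcl2 at 2.20 and Lin7b at 8.41. Sham replicate 2 was low for Cxcl10 at 3.69 and Gpr17 at 7.40 and high for Adam8 at 3.61, Ccl2 at 3.82, Ccr1 at 3.58 and Ntrk2 at 11.14. Sham replicate 3 was low for Ch25h at 2.27 and Sema3a at 8.11 and high for Ccl3 at 2.56, Ctsh at 8.80, Slc7a11 at 7.55 and Timp1 at 3.61. Sham replicate 4 was low for Cdc6 at 2.18, Kcnj10 at 12.26, Slc2a1 at 12.16 and Vegfa at 8.06 and high for Atp6v0d2 at 2.46, Cdkn2c at 4.94, Cxcl3 at 2.53, Hmgcs1 at 14.56 and Il6 at 2.20. Sham values under 4 lie near the floor of the scale, where gaps are small.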

How the results depend on the processing

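Day 3 against sham kept its counts within 1.5 times under every alternative run, from 11378 (replicate block) to 16464 (array weights) of 24573 probe sets around 15187. Single arrays left out gave 14227 to 15149 called, 6029 to 6509 higher, 8198 to 8640 lower and 8121 to 9309 at 1.5-fold or more. Quantile scaling and median centring moved the median of all genes to −0.0775 and −0.0683, and no gene list changed its direction.

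The comparisons with other days were less stable. For day 3 against day 1 (6661 probe sets: 2867 higher, 3794 lower, 2454 at 1.5-fold), fitting only the compared arrays gave 4074 called and 2114 lower. Grouping the 2 day 1 arrays with conflicting labels by source and time, a reading from which their values lie apart, gave 3081 called, 1433 higher and 1648 lower. Single arrays left out gave 5414 to 6653 called. For day 7 against day 3 (4712: 2122 higher, 2590 lower, 2013 at 1.5-fold), only the compared arrays gave 1488, 674, 814 and 996, and the regrouped arrays 979, 402, 577 and 596. Single arrays left out gave 3174 to 5502 called, 1379 to 2557 higher, 1795 to 2945 lower and 1339 to 2582 at 1.5-fold. For day 3 against the mean of day 1 and day 7 (3267: 1625 higher, 1642 lower, 980 at 1.5-fold), only the compared arrays gave 1721, 985 and 736 (called, higher, lower), array weights 6066, 2907 and 3159, and the regrouped arrays 1511, 749, 762 and 624 at 1.5-fold. Single arrays left out gave 1974 to 4072 called, 1228 to 1931 higher, 746 to 2141 lower and 701 to 1467 at 1.5-fold. Fitting only the compared arrays uses fewer arrays for the spread; the cause of the other changes was not tested.

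The replicate numbers did not pair the arrays, and no crossed pairing was tried. With the replicate number as a block, day 3 against day 1 gave 936 probe sets (667 higher, 269 lower, 900 at 1.5-fold), day 7 against day 3 gave 355 (140, 215 and 355), and day 3 against the mean of both gave 561 (425, 136 and 411). Only 2 arrays correlated best with their own number.

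For the knockout response against the wild-type one no probe set passed. Without a filter 6 did (2 higher, 4 lower, 4 at 1.5-fold), without the library labelled sham KO replicate 2 there were 2 (2 lower, both past 1.5-fold), and over single arrays left out 0 to 2, with 0 to 1 higher, 0 to 2 lower and 0 to 2 at 1.5-fold.

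Of 283 gene results named in the text, 244 kept their direction and call under every alternative, 30 lost a call under at least 1 and 8 gained 1. Array weights gave a call to Abcg1, Aqp4, Atp6v0d2, Col1a1, E2f1 and Hk1. Gpr17 turned from lower to higher without day 3 replicate 2 (+1.07) and with array weights (+1.075). Over single arrays left out its difference ran from −1.136 to +1.07. Timp2 went to 0.0393 with the mean of its probe sets. The floor of GCRMA limits the size of changes in genes near it.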
